A study of Mus musculus with 19 samples.

Results

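The genes described here mark cholinergic interneurons of the striatum, which use acetylcholine as their transmitter. They are Chat, Slc18a3, Slc5a7, Lhx8, Slc17a8 and Ecel1, chosen by name from what is known of these cells and matched to the deposited tables by gene identifier. Of the 6 listed genes, 5 had a row among the 39017 genes of the tables, and all 5 passed the filter on low counts, which left 13926 genes. Slc18a3, which encodes the vesicular acetylcholine transporter, was not analysed here.

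The study sequenced ribosome-bound mRNA from the striatum of female mice in 16 libraries, 4 in each group. A ribosomal protein fused to a green fluorescent protein, carried by the strains Drd1::EGFP-L10a or Drd2::EGFP-L10a on a background labelled C56BL/6J, allows translating ribosomes of the tagged cells to be pulled down. Mice were 42 days old (young) or 2 years old (old), which gives a young and an old group for each of D1 and D2, all 4 with a tag. Replicates are biological by the design text. The sources used here do not state how many animals went into a library.

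Cholinergic interneurons are a small share of striatal neurons, fire tonically and innervate the striatum densely. They take up choline, acetylate it with choline acetyltransferase, load the product into synaptic vesicles and break it down outside the cell with acetylcholinesterase. They express the dopamine receptor gene Drd2, so a tag driven by Drd2 regulatory sequence can mark them together with the D2 spiny projection neurons named in the labels, whereas Drd1 is used as the marker of D1 projection neurons.

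Each label was first set against the genes that define the 2 kinds of projection neuron, as a check of the pulldowns. Levels are given as TPM, an abundance scaled for transcript length and library size. Drd2 averaged 3116 ± 443 TPM (SD, n = 4) in young D2 and 3529 ± 1550 TPM in old D2, against 19.9 ± 15.2 TPM in young D1 and 23.9 ± 21.8 TPM in old D1. Drd1 averaged 284 ± 36.7 TPM in young D1 and 418 ± 130 TPM in old D1, against 8.31 ± 2.54 TPM in young D2 and 67.6 ± 16.7 TPM in old D2. The markers thus followed the labels, with more Drd1 in the old D2 libraries than in the young ones. Libraries held 27484038 to 70903004 assigned fragments. The old D1 libraries mostly had fewer genes with a count, 10364 to 13694 against 12770 to 14992 in the other libraries, and these ranges overlapped. They stood apart by their mean difference between gene length and effective length, 150.2 to 163.4 bases against 169.3 to 194.3 bases. The part of these differences in any result on old D1 below was not tested.

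All 5 measured genes had a count in each of the 8 D2 libraries, and each had a lower mean level in D1 than in D2 at both ages. Their summed level was 35.4, 12.8, 17.1 and 24.8 TPM in young D2 and 26.4, 36.1, 20.7 and 25.5 TPM in old D2 (replicates 1 to 4). It was 1.54, 6.94, 0.31 and 1.39 TPM in young D1 and 0.20, 1.82, 3.35 and 0.25 TPM in old D1. The sums of D1 and D2 libraries did not overlap at either age. Set against Drd2 in the same library, the summed level was 0.493% to 1.18% of the Drd2 level in young D2 and 0.461% to 1.03% in old D2. In such pulldowns from whole tissue, fewer cells of a type and less RNA per cell cannot be told apart.

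**Figure D1:**
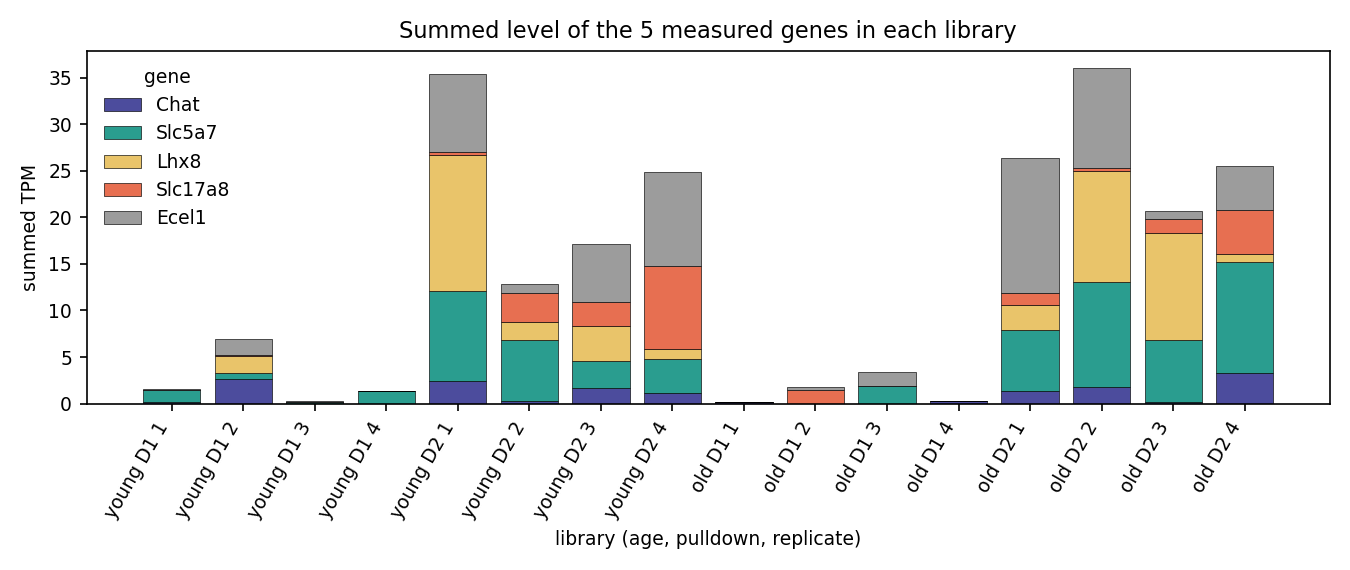
Bars give the summed TPM of Chat, Slc5a7, Lhx8, Slc17a8 and Ecel1 in each of the 16 libraries, coloured by gene. The 8 D2 bars lie between 12.8 and 36.1 TPM, above all D1 bars, and the gene with the most TPM in a bar differs between libraries of the same group. In some libraries short isoforms carry part of the Lhx8 and Ecel1 TPM.

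The promoters of Slc5a7, Lhx8 and Slc17a8 are shown first because these are the genes whose D2 libraries all lay above the D1 libraries at one age or both. The stretches come from the RefSeq promoter table on GRCm38.p6, in which all 6 listed genes were found, and hold only bases upstream of the start that lie in no annotated exon. All 3 genes are on the minus strand. The sequences run 5′ to 3′ toward the start, with capitals where one of the searched motifs, TAATTA or TATAAA, was found on either strand.
Slc5a7, chr17:54299035-54299284: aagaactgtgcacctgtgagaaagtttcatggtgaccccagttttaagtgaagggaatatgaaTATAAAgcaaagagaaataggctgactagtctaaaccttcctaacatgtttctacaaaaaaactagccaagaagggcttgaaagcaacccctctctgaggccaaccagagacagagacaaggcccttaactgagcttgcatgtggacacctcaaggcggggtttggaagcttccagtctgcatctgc
Lhx8, chr3:154330660-154330810: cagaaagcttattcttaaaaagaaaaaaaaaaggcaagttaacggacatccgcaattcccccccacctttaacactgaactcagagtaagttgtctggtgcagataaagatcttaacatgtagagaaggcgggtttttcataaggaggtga
Slc17a8, first start, chr10:89621254-89621499: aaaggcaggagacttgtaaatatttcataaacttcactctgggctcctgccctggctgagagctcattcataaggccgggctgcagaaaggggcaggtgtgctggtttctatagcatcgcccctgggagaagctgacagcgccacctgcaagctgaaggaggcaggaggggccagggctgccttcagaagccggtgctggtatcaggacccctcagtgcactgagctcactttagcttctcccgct
Slc17a8, second start, chr10:89599816-89600065: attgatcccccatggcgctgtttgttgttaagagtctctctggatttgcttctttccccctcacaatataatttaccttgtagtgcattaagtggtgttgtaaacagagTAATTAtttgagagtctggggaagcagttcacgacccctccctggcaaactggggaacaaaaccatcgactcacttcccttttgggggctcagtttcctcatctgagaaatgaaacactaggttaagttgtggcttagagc
TAATTA, the core bound by many LIM homeodomain proteins, the family of Lhx8, occurred in 1 of 7 upstream windows of the 6 genes and in 4.84% of all 32851 windows of 250 bases. It begins at -141 from the second Slc17a8 start, and neither motif was found in the window at the first start. TATAAA, the core of the TATA box, occurred in 1 of 7 windows of the 6 genes and in 12.4% of all windows, and begins at -187 in the Slc5a7 stretch. A match is a description of letters and not of a bound site.

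Chat (chr14:32408203-32465989 on GRCm38, minus strand) encodes choline acetyltransferase, the enzyme that makes acetylcholine and the defining gene of these neurons. Its levels were 2.37, 0.30, 1.70 and 1.13 TPM in young D2 and 0.14, 2.69, 0 and 0 TPM in young D1. The highest young D1 library, replicate 2, lay above all 4 young D2 libraries, so the groups overlapped. In the old mice the levels were 1.37, 1.79, 0.14 and 3.23 TPM in D2 and 0.20, 0, 0 and 0.25 TPM in D1, and replicate 3 of old D2 lay among the D1 libraries. The log2 fold change of D1 over D2 was -0.87 (SE 1.95, 95% interval -4.95 to 3.20) in young mice and -3.59 (SE 2.15, -8.09 to 0.91) in old mice. Neither passed edgeR's quasi-likelihood test (adjusted p = 0.999 and 0.319). Young D1 replicate 2 decided the young value: without it the log2 fold change was -4.79, still not called (edgeR adjusted p = 0.874).

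The Slc18a3 gene (chr14:32462438-32464850) lies inside intron 1 of the Chat transcript with 16 exons that the tables list, between exon 1 (32465807 to 32465957) and exon 2 (32460725 to 32460913). The Chat values therefore rest on exons that Slc18a3 does not overlap. Chat had 13 to 123 estimated counts in the D2 libraries, and its mean TPM there was the lowest of the 5 genes at both ages.

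Slc5a7 (chr17:54273590-54299034) encodes the high-affinity choline transporter of cholinergic terminals and had the most even levels of the 5 genes across the D2 libraries. It stood at 9.67, 6.53, 2.82 and 3.61 TPM in young D2 and at 1.37, 0.54, 0.14 and 1.39 TPM in young D1. It stood at 6.53, 11.32, 6.67 and 11.97 TPM in old D2 and at 0, 0, 1.86 and 0 TPM in old D1. All D2 libraries lay above all D1 libraries of the same age at both ages. The highest over the lowest D2 library was 3.43-fold in young and 1.83-fold in old mice, whereas it was 7.9-fold or more for each of the other 4 genes. Slc5a7 in D1 over D2 had a log2 fold change of -2.56 (SE 1.45, 95% interval -5.60 to 0.48) in young mice and -4.26 (SE 1.57, -7.54 to -0.98) in old mice. Neither passed edgeR's quasi-likelihood test after adjustment over all genes (adjusted p = 0.959 and 0.0912). The 185 counts of old D1 replicate 3 were the only ones in its group: without that library the old comparison had an adjusted p of 0.000122 in the same edgeR test, and with it DESeq2 gave 0.00899.

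Slc17a8 (chr10:89574020-89621253) encodes the vesicular glutamate transporter VGLUT3, through which cholinergic interneurons also release glutamate. Its levels were 0.33, 3.17, 2.68 and 8.84 TPM in young D2 and 0, 0.11, 0 and 0 TPM in young D1. All young D2 libraries lay above all young D1 libraries, replicate 1 of D2 closely so with 27 counts. In the old mice it stood at 1.26, 0.22, 1.57 and 4.73 TPM in D2 and at 0, 1.42, 0 and 0 TPM in D1. The D1 library with 1.42 TPM, replicate 2, lay above 2 of the 4 old D2 libraries. D1 over D2 gave a log2 fold change of -6.95 (SE 2.45, 95% interval -12.08 to -1.83) in young mice, on 10 counts in D1, and -2.31 (SE 1.97, -6.43 to 1.81) in old mice. Neither passed edgeR's quasi-likelihood test (adjusted p = 0.549 and 0.515). The young comparison passed with DESeq2 (adjusted p = 0.032) and with limma-voom using library weights (adjusted p = 0.0275). Without old D1 replicate 2 the old comparison passed edgeR's test (adjusted p = 0.0308).

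Lhx8 (chr3:154306294-154330659) encodes a LIM homeodomain transcription factor needed for forebrain cholinergic neurons to form, and was the single gene of the 5 that passed the test. Its levels in old D2 were 2.67, 11.92, 11.47 and 0.86 TPM, and all 4 old D1 libraries had no count. Taking 3 counts in each old D1 library as the floor that a count of 0 allows, which covers counting error only, its level in CPM (counts scaled to the assigned fragments of a library) was at least 52.3-fold lower in old D1 than in old D2. Old D2 replicate 3 carried much of this bound, which was at least 30-fold without it. edgeR's quasi-likelihood test gave an adjusted p of 0.0176, and 0.0454 without that library. The call ended when the fit held only the 8 old libraries (adjusted p = 0.0593) and in limma-voom with library weights (adjusted p = 0.0644). In young mice Lhx8 stood at 14.66, 1.89, 3.76 and 1.17 TPM in D2 and at 0, 1.91, 0.04 and 0 TPM in D1. Replicate 2 of young D1 lay above 2 of the 4 young D2 libraries in TPM. In CPM it stood at 0.61, below every young D2 library, of which the lowest was replicate 4 at 0.94. The young comparison of D1 with D2 gave a log2 fold change of -4.45 (SE 1.93, 95% interval -8.53 to -0.37), with an adjusted p of 0.741 in edgeR's test. Without young D1 replicate 2 it was -7.90 (edgeR adjusted p = 0.432).

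TPM values of Lhx8 depend on which of its 6 isoforms took the counts. The 11.92 TPM of old D2 replicate 2 came from 214 counts, of which 36.8 were assigned to an isoform of 359 bases that made up 8.03 TPM. The 11.47 TPM of old D2 replicate 3 came from 647 counts, all on an isoform of 1775 bases. In CPM these libraries stood at 4.16 and 9.13, so near-equal TPM values went with unequal CPM values. In young D2 replicate 1, 8.05 of the 14.66 TPM came from 89.6 counts on an isoform of 769 bases. In young D1 replicate 2, all of the 1.91 TPM came from 24 counts on an isoform of 763 bases.

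Ecel1 (chr1:87147655-87156521) encodes a membrane-bound metallopeptidase of neurons related to endothelin-converting enzyme. Its levels were 8.33, 0.93, 6.18 and 10.08 TPM in young D2 and 0.03, 1.69, 0.13 and 0 TPM in young D1. Replicate 2 of each group made them overlap. In old mice it stood at 14.55, 10.84, 0.88 and 4.71 TPM in D2 and at 0, 0.40, 1.49 and 0 TPM in D1, where replicate 3 of each group did so. The log2 fold change of D1 over D2 was -3.58 (SE 1.80, 95% interval -7.34 to 0.19) in young mice and -3.78 (SE 1.82, -7.58 to 0.02) in old mice. Neither passed edgeR's quasi-likelihood test (adjusted p = 0.871 and 0.20). Without young D1 replicate 2 the young value was -6.55 and without old D1 replicate 3 the old value was -5.55 (edgeR adjusted p = 0.631 and 0.096). On log2(TPM + 0.5) values limma-trend called the old difference (adjusted p = 0.0389). For Ecel1 too, short isoforms carried TPM on few counts: 2 counts on an isoform of 191 bases gave 2.31 of the 14.55 TPM in old D2 replicate 1 and 2.06 of the 6.18 TPM in young D2 replicate 3.

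**Figure D2:**
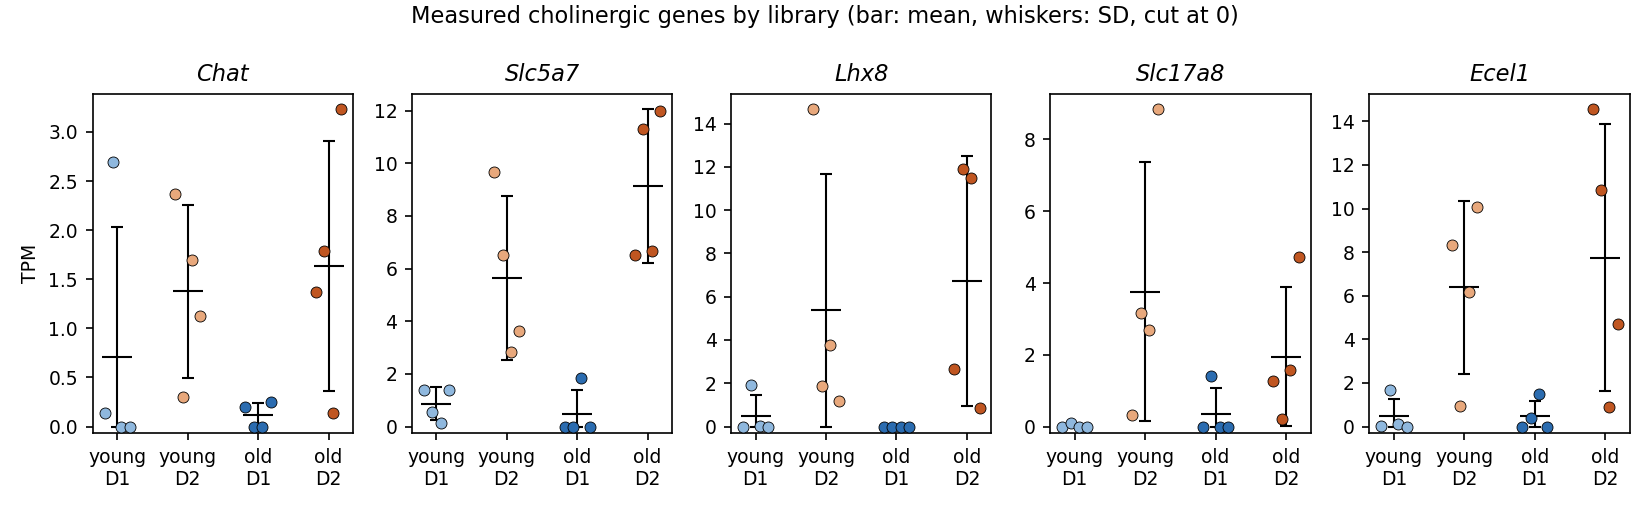
Each point is the TPM of one library, with the group mean (bar) and SD (whiskers, cut at 0), in a panel for each of the 5 measured genes with its own vertical axis. Slc5a7 separates D2 from D1 at both ages, Slc17a8 in young mice and Lhx8 in old mice, while young D1 replicate 2 reaches into the young D2 range for Chat, Lhx8 and Ecel1. In CPM, which is not shown, Lhx8 in young D1 stayed below young D2.

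Counted over the 5 genes, 0 were called in young mice by edgeR's quasi-likelihood test at an adjusted p of 0.05, against 0.208% of all genes tested that were called with D2 higher. Of the 5, 2 had an unadjusted p under 0.05 (Slc17a8 and Lhx8), against 2.81% of all genes with D2 higher, and DESeq2 called 1, against 0.593%. In old mice edgeR called 1 of 5, against 4.58% of all genes with D2 higher, 2 had an unadjusted p under 0.05, against 13.8%, and DESeq2 called 2, against 9.5%. The median log2 fold change of the 5 genes was -3.58 in young and -3.78 in old mice, the latter the same with Lhx8 at its bound, against 0.02 and -0.07 over all genes tested. Chat, Lhx8, Slc17a8 and Ecel1 had too few counts in D1 to pass the filter on low counts there, and passed it through the D2 libraries. Their lower level in D1 was thus partly set by the filter. The shares and medians here and in the next paragraph are descriptions and do not test that direction.

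By the ranges of their TPM values, 2 of 5 genes (Slc5a7 and Slc17a8) had all young D2 libraries above all young D1 libraries, as had 3.98% of all genes tested. Without young D1 replicate 2, chosen for this after its values were seen, all 5 of the genes did, against 6.09% of all genes. In old mice 2 of 5 (Slc5a7 and Lhx8) did, against 10.2% of all genes. Without old D2 replicate 3, also chosen after the values were seen, 4 did, against 13.2% of all genes. The young library that decides these counts, D1 replicate 2, was the only D1 library with counts for all 5 genes. For Lhx8 it overlapped young D2 in TPM and not in CPM. As a share of the young D2 mean TPM it held 196% for Chat, 35.6% for Lhx8, 26.5% for Ecel1, 9.54% for Slc5a7 and 2.93% for Slc17a8. The D2 projection neuron genes Drd2, Penk and Adora2a stood at 1.2%, 3.94% and 2.65% of their young D2 means in that library. Of the same kind, Gpr6, Sp9 and Grik3 stood at 1.69%, 1.78% and 7.64%, while Ache stood at 12.5%. Among the young D1 libraries Drd2, Penk, Adora2a and Grik3 were each highest in this one, and Sp9 was not. Of the other cholinergic genes, Zic1 and Slc10a4 were at 0 in it, Lhx6 stood at 57.1% and Ngfr at 1071% (2.25 TPM) of their young D2 means. The comparison of this library with the young D2 means was chosen after its values were seen.

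**Figure D3:**
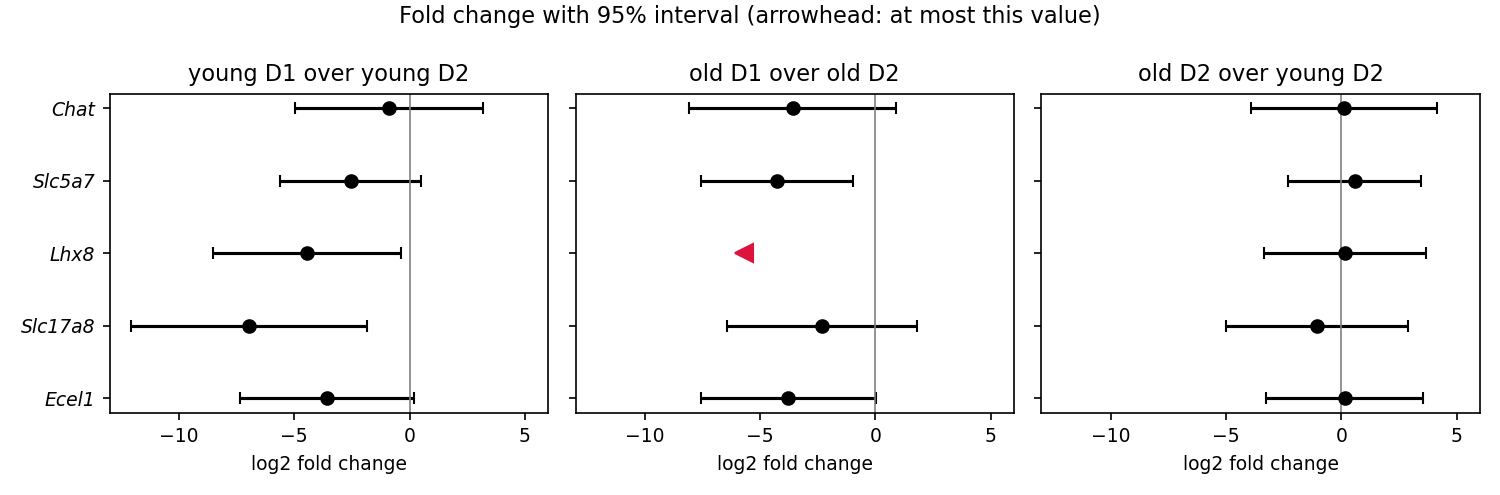
Points are log2 fold changes from edgeR with 95% intervals for the 5 measured genes: young D1 over young D2, old D1 over old D2, and old D2 over young D2. The arrowhead is the bound for Lhx8 in old mice (-5.71, at least 52.3-fold lower), and the age panel holds intervals that all span 0.

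Neighbours in the order of the genes by mean TPM in the D2 libraries were not separated by their spread. In young D2 it ran from Ecel1 (6.38 ± 3.97, SD, n = 4) over Slc5a7 (5.66 ± 3.11), Lhx8 (5.37 ± 6.29) and Slc17a8 (3.75 ± 3.61) to Chat (1.38 ± 0.88). In old D2 it ran from Slc5a7 (9.12 ± 2.93) over Ecel1 (7.75 ± 6.12), Lhx8 (6.73 ± 5.78) and Slc17a8 (1.95 ± 1.94) to Chat (1.63 ± 1.27). Every pair of neighbours in either order overlapped in its library values. Genes further apart did separate: all Slc5a7 values lay above all Chat values at both ages, and above all Slc17a8 values in old D2. By TPM the same gene did not lead within a group. Lhx8 was highest in young D2 replicate 1 and in old D2 replicates 2 and 3. Ecel1 was highest in young D2 replicates 3 and 4 and old D2 replicate 1, and Slc5a7 in the remaining 2. Short isoforms carried 8.05 of the 14.66 TPM of Lhx8 in young D2 replicate 1 and 8.03 of the 11.92 TPM in old D2 replicate 2. In CPM, which is not scaled for length, Slc5a7 lay above Lhx8 in the libraries that Lhx8 led (23.61 against 7.79, 28.74 against 4.16 and 16.61 against 9.13). The Slc5a7 transcript is longer (5180 against 2076 bases), which raises its CPM, so the CPM order does not undo the TPM order. In old D2 replicate 3 all 647 Lhx8 counts lay on an isoform of 1775 bases. Young D2 replicate 1 had the highest Chat, Slc5a7 and Lhx8 of its group and the lowest Slc17a8.

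Between 42 days and 2 years, none of the 5 genes was called in the D2 libraries, where 0.079% of all genes tested were called by edgeR's quasi-likelihood test. No member had an unadjusted p under 0.05, against 5.75% of all genes, and DESeq2 called 0, against 0.747%. The log2 fold changes of old over young D2 were 0.12 for Chat (95% interval -3.93 to 4.16), 0.58 for Slc5a7 (-2.29 to 3.46) and 0.16 for Lhx8 (-3.37 to 3.69). They were -1.05 for Slc17a8 (-5.01 to 2.91) and 0.14 for Ecel1 (-3.26 to 3.54), each with an adjusted p of 1. The intervals leave room for several-fold changes either way, so an age difference was not detectable at this spread. The sign for Chat, Lhx8 and Ecel1 turned when single libraries were left out. In the same D2 libraries edgeR called 4 of 7 D1 projection neuron genes higher at 2 years. Mean levels rose from 8.31 to 67.6 TPM for Drd1, 122 to 414 TPM for Tac1, 12.4 to 36.8 TPM for Sfxn1 and 1.08 to 13.9 TPM for Chrm4. The part of this in the age comparison was not tested.

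In the D1 libraries 0 of 5 genes changed with age by edgeR's quasi-likelihood test (adjusted p 0.095 to 0.99), against 10.8% of all genes tested. Lhx8 was the 1 of 5 with an unadjusted p under 0.05, against 26.9% of all genes, and DESeq2 called 0, against 19%. The difference between the age changes in D2 and D1 was called for 0 of 5 genes (adjusted p 0.239 to 0.984), against 1.77% of all genes. Again 1 gene, Lhx8, had an unadjusted p under 0.05, against 16.9% of all genes, and DESeq2 called 0, against 7.47%.

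Genes of acetylcholine breakdown and choline handling, a list of 17 of which 12 were tested, were mostly not called. Ache, which encodes acetylcholinesterase and is made by many neurons, was the exception, and its values follow because it is the enzyme that ends the transmitter's action. It stood at 7.93, 1.73, 8.45 and 29.11 TPM in young D1, 10.49, 8.26, 18.13 and 18.51 TPM in young D2 and 14.38, 6.31, 5.96 and 5.66 TPM in old D2. In old D1 it stood at 0, 0, 0.17 and 0 TPM, below every library of the other groups. Old D1 over old D2 gave a log2 fold change of -7.63 (SE 1.45) with an adjusted p of 0.00288 in edgeR's quasi-likelihood test. With age in D1 it fell by 8.21 on the log2 scale (SE 1.48, edgeR adjusted p = 0.0017), and the age changes in D2 and D1 differed by 7.67 (SE 1.72, edgeR adjusted p = 0.0283). Old D1 replicate 3 held the only Ache counts of its group. With other libraries left out, the old comparison ran from -7.87 to -6.95 (the latter without old D2 replicate 1) and the age change in D1 reached -7.08 without young D1 replicate 4. The first 2 calls ended with only the compared groups fitted (adjusted p = 0.0635 and 0.0611) and in limma-voom (0.0638 and 0.0846). The third ended in limma-voom (adjusted p = 0.181), in limma-trend (0.182 with a pseudocount of 1), with a GC content and length trend removed at unchanged scaling (0.0696), and without young D1 replicate 4, old D2 replicate 1 or 2 or any 1 young D2 library. The median log2 fold change of the 12 tested genes was -0.28 in young and -0.51 in old mice.

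Among 16 other genes known from cholinergic interneurons, 13 were tested. Isl1, a LIM homeodomain gene that both cholinergic and D1 projection neurons use, was higher in D1 than in D2. The log2 fold change of D1 over D2 was 4.70 in young mice (edgeR adjusted p = 0.00177) and 2.75 in old mice (edgeR adjusted p = 0.0119; 0.0844 with only the old libraries fitted). Ngfr, the low-affinity neurotrophin receptor gene, and Slc10a4, which encodes a vesicular protein of cholinergic terminals, were lower in old D1 than in old D2, and both had no count in any old D1 library. Ngfr stood at 4.14, 5.83, 0 and 2.60 TPM in old D2, at least 66.3-fold above the floor of old D1 (edgeR adjusted p = 0.0237). Slc10a4 stood at 3.22, 1.60, 0.23 and 2.15 TPM, at least 41.8-fold above it (edgeR adjusted p = 0.034). The Ngfr call ended in limma-voom (adjusted p = 0.217) and without old D2 replicate 2 (0.0562, at least 46.3-fold). The Slc10a4 call ended in limma-voom (0.071), with only the old libraries fitted (0.0596) and without any 1 old library except replicate 3 of either kind. Some uncalled genes of the list went the other way. Log2 fold changes of D1 over D2 were 2.70 at both ages for Gfra2, and 2.76 in young and 0.93 in old mice for Nkx2-1. In young mice Ngfr too was higher in D1, at a mean of 0.79 against 0.21 TPM (log2 fold change 1.99, edgeR adjusted p = 0.999). The list's median log2 fold change was -1.75 in young and -3.12 in old mice. Some of its genes, Slc10a4 and Zic1 among them, passed the filter on low counts only through the D2 libraries.

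Zic1, a zinc-finger transcription factor gene, was also higher in D2 by its library values. It stood at 2.70, 0.40, 5.25 and 1.66 TPM in young D2 with no count in young D1, and at 2.21, 3.32, 0.43 and 3.41 TPM in old D2 with 0.11, 0, 0.36 and 0 TPM in old D1. D2 and D1 did not overlap at either age. The young level was at least 54.1-fold lower in D1 (34-fold without young D2 replicate 3; edgeR adjusted p = 0.0979) and neither age passed the test. From young to old D1, edgeR called Zic1 higher (at least 4.82-fold, adjusted p = 0.0481), a call that rested on counts in 2 libraries and a bound that was 1.46-fold without old D1 replicate 3. It was lost without any 1 young D1 library or old D1 replicate 1 or 3, without a filter on low counts (adjusted p = 0.0676) and in limma-voom (0.314). In the same comparison Ngfr was called lower, at least 18.1-fold (edgeR adjusted p = 0.0378), from 0.52, 2.25, 0.15 and 0.22 TPM in young D1, and was lost without any 1 of the D1 libraries except young D1 replicate 3. Without young D1 replicate 2 the Ngfr bound was 6.81-fold.

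Of 12 nicotinic receptor subunit genes, 4 were tested. Chrnb2, the most widely used beta subunit gene of the brain, was lower in old D1 (1.86, 1.62, 5.53 and 1.46 TPM) than in old D2 (35.44, 10.48, 5.28 and 4.61 TPM). The ranges overlapped through D1 replicate 3. Old D1 over old D2 gave a log2 fold change of -2.33 (SE 0.69, edgeR adjusted p = 0.0388), and the call was lost without old D1 replicate 1, 2 or 4 or old D2 replicate 1 or 2. Without old D2 replicate 1 it was -1.32.

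**Figure D4:**
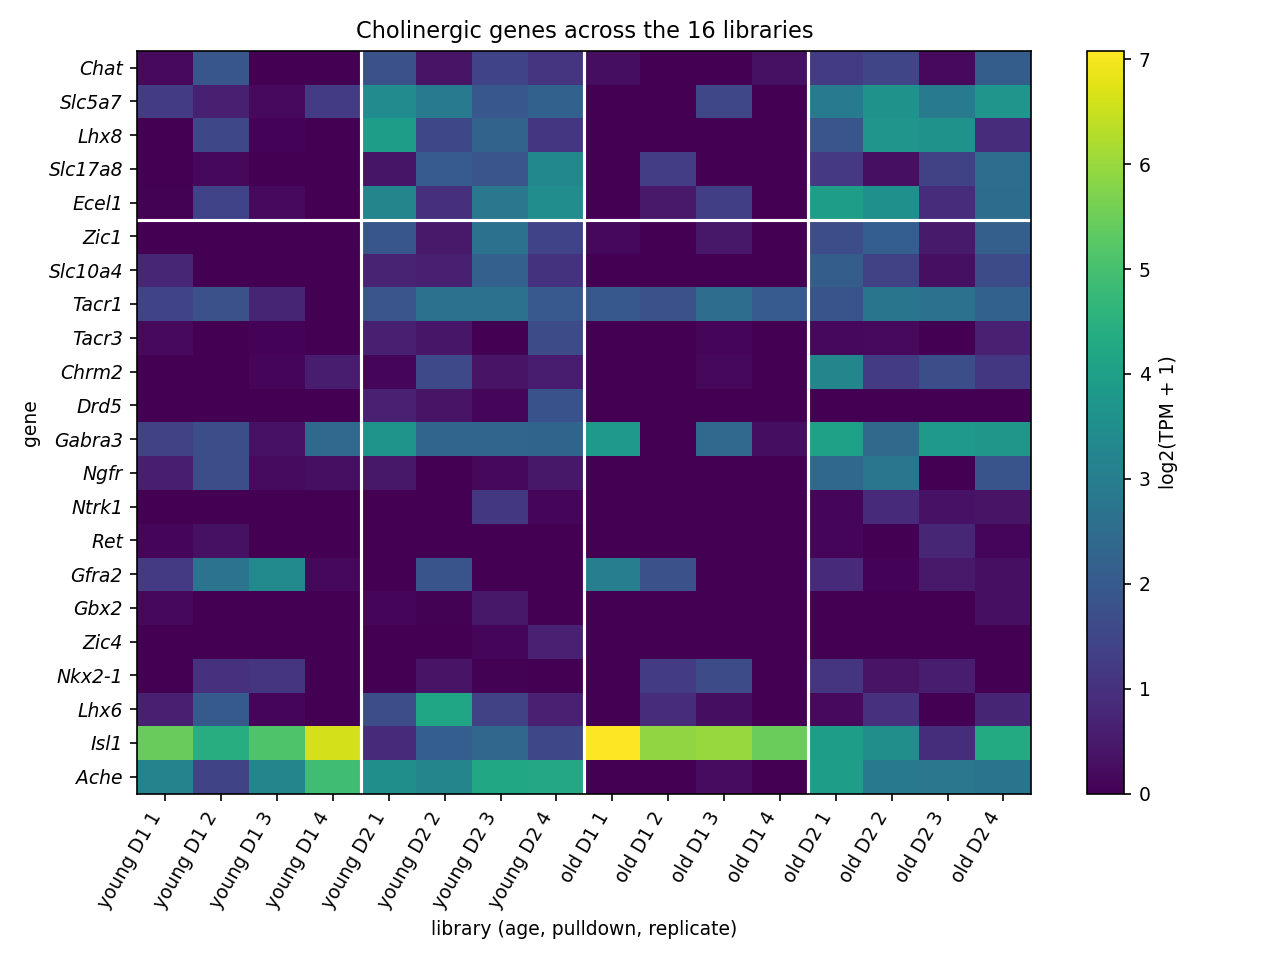
Colour gives log2(TPM + 1) of the 5 measured genes (above the white line), 16 other cholinergic genes and Ache in each of the 16 libraries. Slc5a7 and Zic1 are brighter in every D2 column than in the D1 columns of the same age, Isl1 is brighter in D1, and Ache is near 0 in all 4 old D1 libraries.

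Markers of other cells that could supply these genes were read from lists. The 6 monoamine neuron markers summed to 3.46 to 7.28 TPM in young D1, 3.07 to 7.8 TPM in young D2, 1.33 to 11.6 TPM in old D1 and 5.98 to 16.1 TPM in old D2. Tph2, Slc6a4, Fev and Slc6a3 were at 0 in every library, and the sums came from Th (up to 11.8 TPM) and Slc18a2 (up to 11.6 TPM). Neither of these was called in any comparison. Summed levels of 12 GABAergic interneuron genes were 112 to 272 TPM in young D1, 16.8 to 134 TPM in young D2, 31.6 to 606 TPM in old D1 and 24.9 to 156 TPM in old D2, so the groups overlapped. Of that list Nos1, the gene of neuronal nitric oxide synthase, was called higher with age in D1 (log2 fold change 3.91, edgeR adjusted p = 0.00371).

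Several other markers moved with the old D1 libraries. Tbr1, a cortical neuron gene, was called higher in old D1 than in old D2 by edgeR (log2 fold change 8.73, adjusted p = 0.0178) and stood at 6.38, 0, 0.92 and 139.08 TPM in old D1, the last from replicate 4. Slc1a2, an astrocyte glutamate transporter gene, was called higher (0.99, edgeR adjusted p = 0.0257), as it was in young D1 (1.30, edgeR adjusted p = 0.0318). Lower in old D1 than in old D2 were Cnp, an oligodendrocyte gene (-2.24, edgeR adjusted p = 0.0251), and the projection neuron genes Ppp1r1b (-1.11, edgeR adjusted p = 0.000248) and Pde1b (-0.58, edgeR adjusted p = 0.0164). The part of these in the results on old D1 was not tested.

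Across the 16 libraries, the genes whose log2(TPM + 1) ran most like the mean standardised level of the 5 genes were Ttc12 (Pearson r = 0.953), Grik3 (0.945), Drd2 (0.936), Ankk1 (0.918) and Oprd1 (0.915), out of 12788 genes compared. Ttc12 and Ankk1 neighbour Drd2 on its chromosome, and Grik3 was in the list of D2 projection neuron genes. The libraries share their tagged line within a kind, so these values describe the split between D2 and D1. Over the 8 D2 libraries, with the mean of each age subtracted, the closest genes were Thoc6 (0.986), Slf1 (0.980), Gm9144 (0.978), Iffo1 (0.965) and Traf2 (0.961). None of the other cholinergic genes was among these 5. These are the highest of 12788 values over 8 libraries, and Thoc6 stood at 1.35 to 5.53 TPM in young D1, where the 5 genes summed to 0.31 to 6.94 TPM.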

How the data were processed

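Ribosome-bound mRNA of 16 striatal libraries was analysed, and 3 NIH-3T3 samples were not used here. Per the submitters' processing notes, the tools were STAR 2.5.1b and RSEM 1.2.20 and the build mm10. Library cDNA was amplified (NuGEN Ovation V2), per the labels. The deposited tables give expected counts, RSEM's estimates of fragments per gene (20.0% of values above 0 were not whole), and TPM computed by the authors' RSEM run, per the file headers. For strand setting and annotation release, the answer is not given in the sources used here. The kit carries no molecular identifiers that the labels name, so floors cover counting error only. Each SE from edgeR's fit was computed as the absolute log2 fold change over the square root of the test's F statistic. The 95% intervals were built from these with a t value, so they are approximate, and they cover the spread between libraries.

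Groups came from the sample titles. Expected counts were rounded, filtered with filterByExpr, scaled by TMM and fitted over all 4 groups with edgeR 4.0.16 (R 4.3.3) quasi-likelihood tests, and p-values were adjusted by Benjamini-Hochberg over 13926 genes with a threshold of 0.05. The common dispersion was 0.956. A gene is at its floor with 3 counts in each library. Alternatives used DESeq2 1.42.0 and limma 3.58.1. The fit was tested on simulated counts with the same spread for all genes and large set changes, placed only in genes above a count limit. That test does not show how often smaller changes, or changes in genes with few counts, are found. Positions came from GENCODE M21 (GRCm38), matched for 37607 of 39017 genes. The genes and lists were chosen with earlier results of these data known. Genes named from a list were up to 3 called per direction and comparison with the smallest adjusted p, and the 5 most alike in pattern. Of the list symbols, 2 had no row (Slc18a3 and Gpr52).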

Additional observations from a re-analysis of the deposited data

Results flagged for a closer look

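Some libraries lay far from the other 3 of their group, by a gap over the group's range above Dixon's critical value. That value is set to be passed in about 1 in 20 groups of normally distributed values, and 10 were found in 40 groups of values tested. A group with 1 library above 0 and the rest at 0 passes it by construction. The number found therefore cannot be set against the rate of 1 in 20. Young D1 replicate 2 was the far library for Chat (2.69 TPM), Lhx8 (1.91 TPM), Slc17a8 (0.11 TPM) and Ecel1 (1.69 TPM). Old D1 replicate 3 was so for Slc5a7 (1.86 TPM), Ache (0.17 TPM) and Chrnb2 (5.53 TPM), and old D1 replicate 2 for Slc17a8 (1.42 TPM). Old D2 replicate 1 was so for Ache (14.38 TPM) and young D1 replicate 1 for Slc10a4 (0.68 TPM). Most of these libraries hold the only counts, or nearly so, in a group otherwise at or near 0.

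The age change of Ache differed between the pulldowns, by 7.67 on the log2 scale (D2 minus D1) in the interaction test of edgeR. Over the settings tried with edgeR, DESeq2 and limma its adjusted p ranged from 1.99e-05 to 0.182, so the call depended on the setting. In old D1 only replicate 3 held Ache counts.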

How the results depend on the processing

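No paired analysis was possible because the labels give no replicate numbers that groups share; the numbers used here follow record order. Between-library spread was wide (biological coefficient of variation 97.8%). With only the compared groups fitted, genes called numbered 98 (young D1 against D2), 354 (old), 305 (age in D1) and 39 (age in D2), against 57, 1337, 1508 and 11 in the fit over all groups, and 0 of the 5 genes were called in old mice. DESeq2 called 187, 2402, 2600, 102 and 1019 genes (the last for the difference of age changes, 246 in edgeR), with 1 of the 5 in young and 2 in old mice. Limma-voom with library weights called 203, 655, 547 and 167, with Slc17a8 as the 1 member in young mice; in old mice it called Slc5a7 and not Lhx8. Limma-trend called 3 of the 5 in old mice with either pseudocount, 0.5 or 1.

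Removing a trend over GC content and length gave 37 genes in young mice and 1 for age in D2. As first run it also moved the library scaling: the median log2 change of all genes shifted by 0.48 in the old comparison, 0.41 for age in D1 and -0.46 for the difference, and 1381 of 1637, 1077 of 1304 and 19 of 196 calls were higher, against 699 of 1337, 750 of 1508 and 117 of 246. A version that kept the scaling, added after this was seen, gave 784 for age in D1 (406 higher) and 78 for the difference (20 higher). Lhx8 in old mice was the 1 member called in both. The split also moved with limma-trend at a pseudocount of 1 (481 of 1590 higher in old mice), with voom (471 of 655) and with only the compared groups (220 of 354).

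Leaving out each library in turn gave 40 to 47 genes in young mice, 692 to 1873 in old mice, 909 to 2055 for age in D1, 5 to 12 for age in D2 and 66 to 656 for the difference. Members called were 0 to 0, 1 to 2, 0 to 1, 0 to 0 and 0 to 1. Slc5a7 was the 1 called for age in D1 and for the difference, without old D1 replicate 3. The age change in D2 turned for Chat to -0.21 and -0.41 (without young D2 replicate 2 and old D2 replicate 4), for Lhx8 to -0.09, -0.16 and -0.68 (without young D2 replicates 2 and 4 and old D2 replicate 3) and for Ecel1 to -0.22, -0.18 and -0.17 (without young D2 replicate 2 and old D2 replicates 1 and 2). The adjusted p of Lhx8 in old mice ranged from 2.63e-05 to 0.0644. The highest values on leaving a library out were 0.52 for Chat, 0.99 for Lhx8 and 0.52 for Ecel1. The causes of these shifts were not tested.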
